A study of Mus musculus with 16 samples.

Results

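Genes that move proteins into the ER, attach N-glycans to them and carry them on to the Golgi were followed in mouse DC progenitors treated with a γ-secretase inhibitor (GSI). The list held 50 symbols. A gene was measured by a probe set that maps to its symbol alone, and where there were several by the one with the highest overall mean. This gave 48 genes of the 19938 tested, since *Srp54a* and *Sec61g* had only probe sets shared with other genes. By role, they were 5 signal recognition particle (SRP) proteins, 2 SRP receptor subunits, 5 genes of the Sec61 translocon and its partners and 4 TRAP subunits. Further in were 5 signal peptidase subunits, 11 genes of the oligosaccharyltransferase (OST), 6 ER lectins and disulfide isomerases, 4 COPII and 3 COPI coat genes and 3 cargo receptors.

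The cells were bone marrow MDPs (monocyte-dendritic cell progenitors) and CDPs (common DC progenitors), CD45.2+, from wild-type (WT) or IkL/L mice, whose hypomorphic Ikaros allele lowers Ikaros without removing it. They were cultured for 24 h with unfractionated CD45.1+ WT bone marrow cells and conditioned medium of the Flt3L-producing line B16-Flt3L, with either vehicle (DMSO) or GSI (Compound E) at 5 µM. The CD45.2+ cells were then sorted again for RNA, which was amplified from small amounts. MDP and CDP thus name the cells put into culture, not those recovered. There were 16 arrays, 2 for each of the 8 combinations of genotype, stage and treatment, from 2 mice per condition by the study's legend, and the labels give no age. The p-values measure the spread between these arrays.

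Secreted and membrane proteins are recognized by SRP as they leave the ribosome, handed to its receptor and threaded through the Sec61 channel with the help of TRAP. Signal peptidase then cuts off the signal peptide, OST transfers an N-glycan, and calnexin, calreticulin and the disulfide isomerases help the chain to fold. COPII vesicles carry the product to the Golgi and COPI vesicles bring receptors and escaped residents back. γ-Secretase is the protease that releases the Notch intracellular domain, and it also cleaves many other membrane proteins.

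Values are RMA signals on the log2 scale, so that a difference of 1 is a doubling, and signals of different probe sets were not set against each other. Array medians lay between 4.52 and 4.65, and replicate arrays correlated across genes with r from 0.983 to 0.996. All 48 genes had means above the median gene, with a median percentile of 97.07 and a lowest of 72.12. The shares of all genes given below thus come mostly from genes of lower signal. *Ikzf1*, which encodes Ikaros, measured 8.97, 9.09, 9.20 and 9.03 in WT MDPs (DMSO first), 8.91, 8.95, 8.90 and 9.15 in WT CDPs, 8.55, 8.85, 8.52 and 8.36 in IkL/L MDPs and 8.62, 8.94, 8.58 and 8.59 in IkL/L CDPs. Its IkL/L against WT difference was -0.33 and -0.15 with DMSO and -0.68 and -0.44 with GSI in MDPs and CDPs. This difference did not reach an adjusted p under 0.05 (limma) in any of the 4 comparisons, so *Ikzf1* RNA does not show the hypomorph past the threshold. The study describes the hypomorph by its lowered functional Ikaros protein, which these arrays do not measure. The progenitor markers *Flt3*, *Csf1r*, *Kit*, *Cd34*, *Cx3cr1* and *Irf8* averaged 8.72 to 9.24 in the DMSO arrays and 7.93 to 8.65 in the GSI arrays. These were bulk samples, in which fewer cells of a type and less RNA per cell cannot be told apart.

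With GSI, the 48 genes lay above DMSO as a group in each population. The median over the genes of the signal minus each gene's own mean over 16 arrays was -0.12 and 0.05 in DMSO-treated WT MDPs and 0.07 and 0.27 in the GSI arrays. In WT CDPs it was -0.28 and -0.16 against 0.04 and 0.07, in IkL/L MDPs -0.10 and 0.06 against 0.20 and 0.23, and in IkL/L CDPs -0.23 and -0.25 against 0.08 and 0.09. Both GSI arrays were above both DMSO arrays in every population, by the narrowest margin in WT MDPs, where the higher DMSO array and the lower GSI array nearly met.

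**Figure D1:**
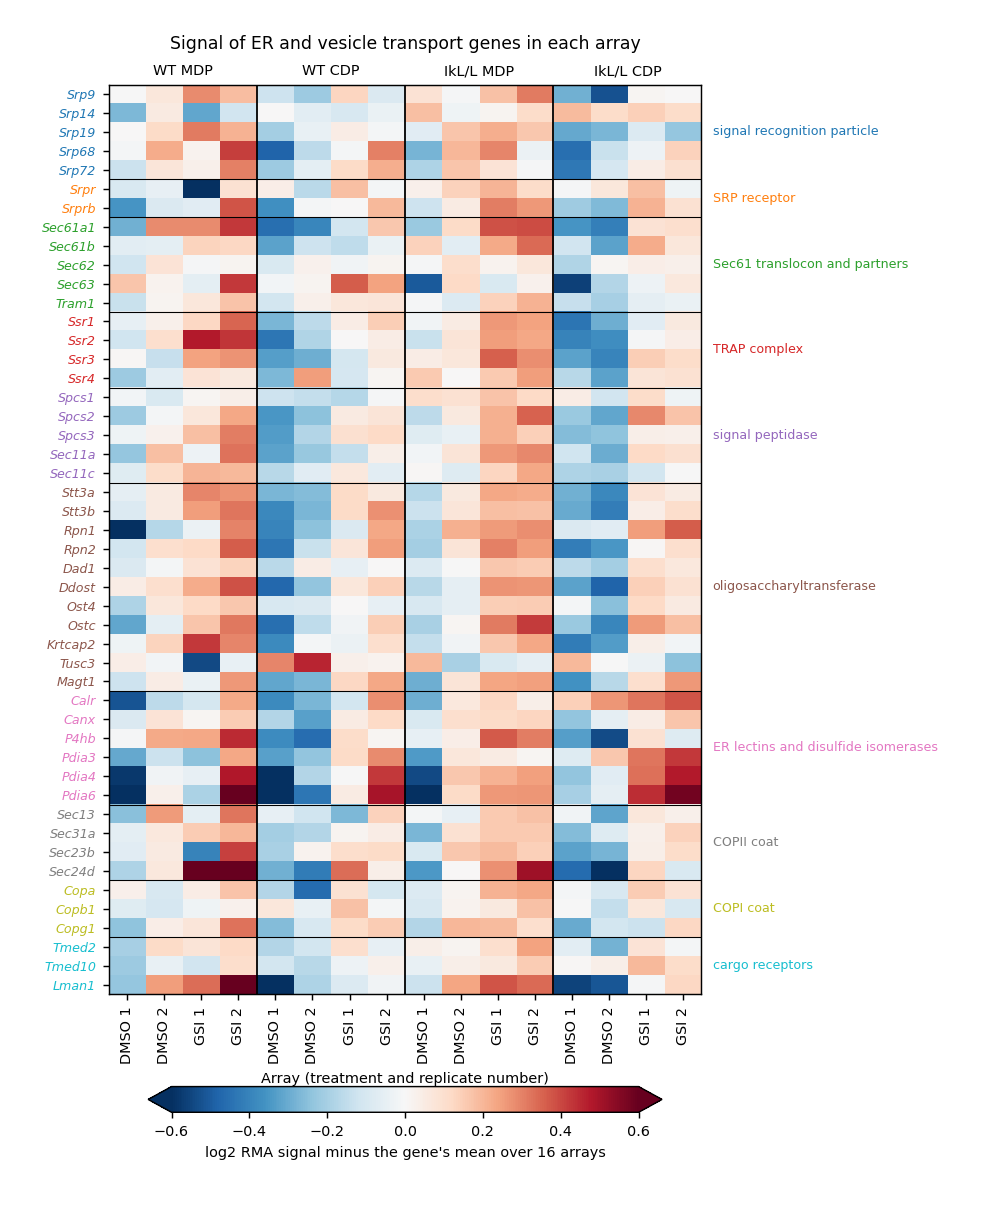
Each cell gives the log2 RMA signal of a gene (vertical axis, grouped by role) in an array (horizontal axis) minus the gene's mean over the 16 arrays, with colours clipped at the ends of the scale. The GSI columns are redder than the DMSO columns of the same population for most genes, and the *Tusc3* row runs the other way.

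In WT MDPs, 45 of 48 genes had a higher mean with GSI (57.3% of all genes) and in 30 both GSI arrays lay above both DMSO arrays (19.0% of all genes). In WT CDPs the counts were 45 (52.5%) and 37 (15.5%), in IkL/L MDPs 45 (53.1%) and 36 (18.3%), and in IkL/L CDPs 46 (53.5%) and 42 (19.4%). The median log2 fold changes of the 48 genes were 0.20, 0.30, 0.22 and 0.34 in WT MDPs, WT CDPs, IkL/L MDPs and IkL/L CDPs. Without 1 array they ran from 0.14 to 0.31, 0.23 to 0.34, 0.16 to 0.30 and 0.32 to 0.35, the 0.31 being without replicate 1 of GSI-treated WT MDPs. Those of all genes were 0.03, 0.01, 0.01 and 0.01. In no single population did a gene of the list pass the test (limma, adjusted p under 0.05 over all genes), where 0.0%, 0.01%, 0.0% and 0.00502% of all genes did. Without adjustment for the number of genes, 16, 20, 22 and 25 of the 48 were higher at a p under 0.05 and none lower, against 3.89%, 1.82%, 1.4% and 1.94% of all genes higher.

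Some genes stood at the ends of the list in every population. In WT MDPs the highest log2 fold changes were *Sec24d* (0.72), *Lman1* (0.53), *Pdia6* (0.53), *Rpn1* (0.52) and *Pdia4* (0.51), and the lowest *Tusc3* (-0.31), *Srpr* (-0.24) and *Srp14* (-0.10). In WT CDPs the highest were *Pdia6* (0.83), *Pdia4* (0.62), *Sec24d* (0.54), *Stt3b* (0.52) and *Pdia3* (0.48), and the lowest *Tusc3* (-0.35), *Srp14* (-0.04) and *Ssr4* (-0.04). In IkL/L MDPs they were *Sec24d* (0.56), *Pdia6* (0.51), *Ostc* (0.46), *Sec61a1* (0.44) and *Pdia4* (0.42), and the lowest *Tusc3* (-0.07), *Srp14* (-0.02) and *Sec62* (-0.0035). In IkL/L CDPs they were *Sec24d* (0.69), *Pdia6* (0.64), *Lman1* (0.59), *Pdia4* (0.55) and *Ostc* (0.52), and the lowest *Tusc3* (-0.23), *Srp14* (-0.02) and *Srpr* (0.05). *Sec24d*, *Pdia6* and *Pdia4* were among the 5 highest in all 4 populations, and *Tusc3* was the lowest in all 4.

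Averaged over the 4 populations, 11 of 48 genes rose with GSI and 0 fell, while 0.221% of all genes rose (44) and 0.0853% fell (17). The 11 were the TRAP subunits *Ssr1*, *Ssr2* and *Ssr3*, the signal peptidase subunits *Spcs2* and *Spcs3*, the OST subunits *Stt3a*, *Stt3b*, *Ddost* and *Ostc*, the disulfide isomerase *P4hb* and the COPII cargo adaptor *Sec24d*. In total 46 of 48 had a higher mean (57.3% of all genes), with a median of 0.25, against 0.01 for all genes and 0.0011 for the 9969 genes with a mean above the median gene. Without adjustment, 39 genes were higher at a p under 0.05 (6.01% of all genes) and 1, *Tusc3*, was lower (5.42%). In 21 genes, the 11 included, both GSI arrays lay above both DMSO arrays in all 4 populations, which held for 121 of all genes (0.607%). Another 14 did so in 3 populations, which held for 688 of all genes (3.451%). The number that rose depended on the arrays. It was 0 without replicate 2 of DMSO-treated IkL/L CDPs or either array of GSI-treated IkL/L MDPs, and 1 without replicate 2 of GSI-treated IkL/L CDPs or replicate 1 of DMSO-treated WT MDPs. It was 3 without replicate 1 of DMSO-treated IkL/L CDPs, 4 without replicate 1 of DMSO-treated IkL/L MDPs and 7 without replicate 1 of GSI-treated IkL/L CDPs. The median stayed between 0.23 and 0.28. With each array centred on its own median, only *Ssr3* of the 11 passed (adjusted p = 0.0332, limma) and the median was 0.23.

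**Figure D2:**
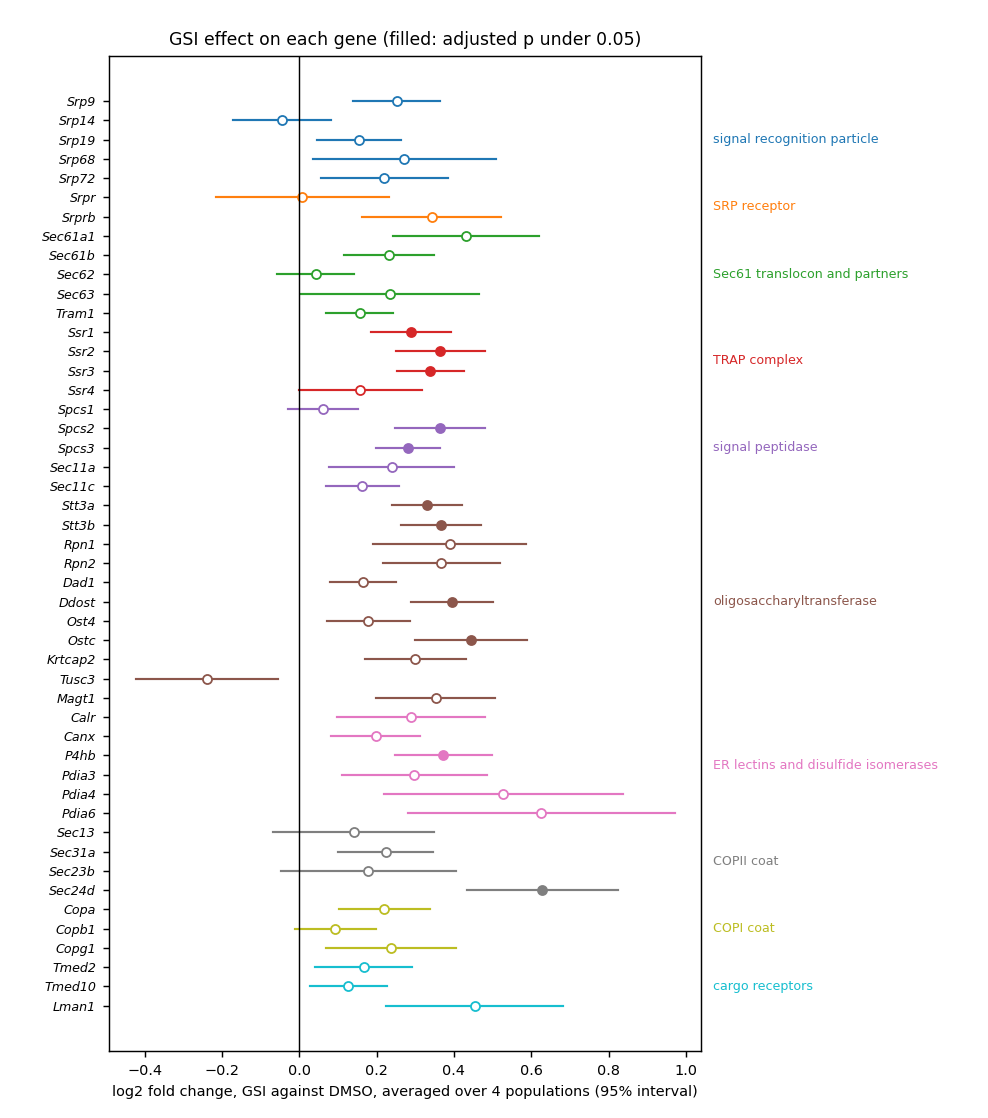
Points give the log2 fold change of GSI against DMSO averaged over the 4 populations (horizontal axis) for each of the 48 genes (vertical axis, by role), bars the 95% interval of the fit, and filled points the 11 genes with an adjusted p under 0.05. All but *Srp14* and *Tusc3* lie above 0, and *Sec24d* (0.63) and *Pdia6* (0.63) lie farthest to the right.

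Among the targeting genes, none of the 5 SRP and 2 SRP receptor genes passed the test. *Srp9*, which with *Srp14* forms the part of SRP that slows elongation, came closest. *Srp9* signal was 10.19 and 10.27 with DMSO and 10.48 and 10.38 with GSI in WT MDPs, 10.07 and 9.98 against 10.33 and 10.11 for WT CDPs, 10.28 and 10.19 against 10.37 and 10.51 in IkL/L MDPs and 9.91 and 9.68 against 10.21 and 10.20 in IkL/L CDPs. The GSI arrays were above the DMSO arrays in all 4 populations, and the averaged log2 fold change was 0.25 ± 0.05 (SE; 1.19-fold; adjusted p = 0.0791). *Srp14* itself was at -0.05 ± 0.06 (SE) and its arrays overlapped in every population. *Srp68*, *Srp72* and *Srp19*, proteins of the signal-recognizing domain of the particle, were at 0.27 ± 0.11 (SE), 0.22 ± 0.07 (SE) and 0.15 ± 0.05 (SE). The receptor subunits differed in value. *Srprb*, the membrane anchor, was at 0.34 ± 0.08 (SE; 1.27-fold; adjusted p = 0.128), and *Srpr*, the subunit that docks SRP, at 0.01 ± 0.10 (SE). In WT MDPs *Srpr* measured 8.04 and 8.08 with DMSO and 7.42 and 8.22 with GSI, in WT CDPs 8.17 and 7.97 and then 8.31 and 8.12, in IkL/L MDPs 8.16 and 8.27 and then 8.33 and 8.24, and in IkL/L CDPs 8.12 and 8.20 and then 8.31 and 8.10. Replicate 1 of GSI-treated WT MDPs stood far below the other 15 *Srpr* values.

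In the Sec61 group, 0 of 5 genes passed and all 5 had a higher mean. *Sec61a1* encodes the channel itself. The DMSO arrays of *Sec61a1* read 9.62 and 10.20 in MDPs and 9.46 and 9.52 in CDPs of WT mice, 9.69 and 10.02 in IkL/L MDPs and 9.56 and 9.50 in IkL/L CDPs, and the GSI arrays 10.20 and 10.33, 9.80 and 10.07, 10.29 and 10.30 and 10.00 and 10.01 in the same order. Its arrays were apart in 3 populations and overlapped in WT MDPs, and the averaged log2 fold change was 0.43 ± 0.09 (SE; 1.35-fold; adjusted p = 0.0755). *Sec61b*, the small tail-anchored subunit, was at 0.23 ± 0.05 (SE), and *Tram1*, which lies beside the channel, at 0.16 ± 0.04 (SE) with its arrays apart in all 4 populations. *Sec63* was at 0.23 ± 0.10 (SE) and *Sec62* at 0.04 ± 0.04 (SE). These last are the partners used by precursors that enter after translation.

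TRAP, which binds the translocon and helps weakly recognized signal peptides to open it, had 3 of its 4 subunits among the genes that rose. For *Ssr3*, DMSO and GSI arrays stood at 10.03 and 9.88 against 10.26 and 10.29 in WT MDPs, at 9.69 and 9.72 against 9.91 and 10.07 in WT CDPs, then at 10.06 and 10.09 against 10.38 and 10.29 in IkL/L MDPs and at 9.70 and 9.62 against 10.17 and 10.13 in IkL/L CDPs. *Ssr3*, the γ subunit, thus had its lowest DMSO values in CDPs of both genotypes, with no overlap between treatments in any population, and rose by 0.34 ± 0.04 (SE; 1.26-fold; adjusted p = 0.0177). It kept an adjusted p under 0.05 when any of 13 of the 16 arrays was left out, the most of the 11 genes. *Ssr2* signal was 10.62 and 10.84 with DMSO and 11.22 and 11.17 with GSI in WT MDPs, 10.31 and 10.56 against 10.75 and 10.79 for WT CDPs, 10.61 and 10.82 against 10.99 and 10.97 in IkL/L MDPs and 10.35 and 10.37 against 10.73 and 10.78 in IkL/L CDPs. In WT MDPs *Ssr1* measured 10.40 and 10.48 with DMSO and 10.58 and 10.80 with GSI, in WT CDPs 10.17 and 10.29 and then 10.49 and 10.59, in IkL/L MDPs 10.43 and 10.50 and then 10.71 and 10.69, and in IkL/L CDPs 10.01 and 10.15 and then 10.38 and 10.51. Both were higher in every GSI array than in every DMSO array of their population, and *Ssr2* (β) rose by 0.36 ± 0.05 (SE; 1.29-fold; adjusted p = 0.0249) and *Ssr1* (α) by 0.29 ± 0.05 (SE; 1.22-fold; adjusted p = 0.0421). *Ssr1* kept an adjusted p under 0.05 when any of 4 of the 16 arrays was left out, and lost it without any of the other 12. *Ssr4* (δ) did not pass, at 0.16 ± 0.07 (SE; 1.12-fold; adjusted p = 0.438), and its arrays overlapped in WT CDPs, where DMSO replicate 2 was the highest of the 4.

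**Figure D3:**
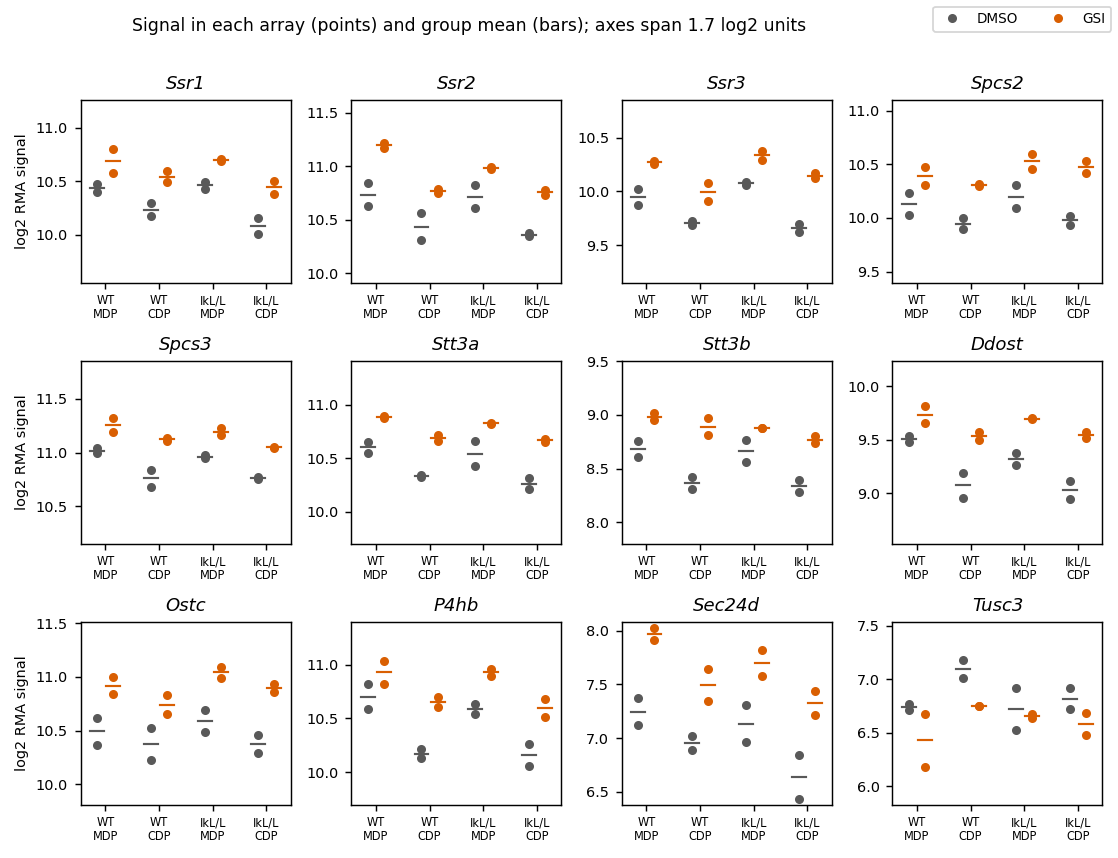
Points give the log2 RMA signal (vertical axis, same span in every panel) of each array in the 4 populations (horizontal axis), grey for DMSO and orange for GSI, and short bars the group means of the 11 genes that rose and of *Tusc3*. In the 11 genes the orange points lie above the grey ones in every population (for *P4hb* in WT MDPs only just), and in *Tusc3* they lie below in 3 of 4.

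Of the signal peptidase, 2 of 5 subunits rose, and neither is a catalytic one. The DMSO arrays of *Spcs2* read 10.03 and 10.23 in MDPs and 9.90 and 10.00 in CDPs of WT mice, 10.09 and 10.31 in IkL/L MDPs and 10.02 and 9.93 in IkL/L CDPs, and the GSI arrays 10.31 and 10.48, 10.30 and 10.32, 10.46 and 10.60 and 10.53 and 10.41 in the same order. For *Spcs3*, DMSO and GSI arrays stood at 10.99 and 11.04 against 11.19 and 11.32 in WT MDPs, at 10.68 and 10.84 against 11.11 and 11.14 in WT CDPs, then at 10.94 and 10.97 against 11.23 and 11.16 in IkL/L MDPs and at 10.75 and 10.78 against 11.05 and 11.04 in IkL/L CDPs. The treatments did not overlap in any population for either gene, and the gap was narrowest for *Spcs2* in WT MDPs. *Spcs2* rose by 0.36 ± 0.05 (SE; 1.29-fold; adjusted p = 0.0271) and *Spcs3* by 0.28 ± 0.04 (SE; 1.22-fold; adjusted p = 0.0206). The catalytic subunits *Sec11a* and *Sec11c* were at 0.24 ± 0.07 (SE) and 0.16 ± 0.04 (SE), and *Spcs1* at 0.06 ± 0.04 (SE).

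OST held 4 of the 11 genes that rose, and 10 of its 11 genes had a higher mean, with a median of 0.35. Its catalytic subunits *Stt3a*, which glycosylates chains as they enter the ER, and *Stt3b*, which acts on sites that were skipped, both rose. *Stt3a* signal was 10.55 and 10.65 with DMSO and 10.89 and 10.87 with GSI in WT MDPs, 10.32 and 10.34 against 10.71 and 10.66 for WT CDPs, 10.43 and 10.66 against 10.83 and 10.82 in IkL/L MDPs and 10.31 and 10.21 against 10.68 and 10.65 in IkL/L CDPs. In WT MDPs *Stt3b* measured 8.61 and 8.75 with DMSO and 8.95 and 9.02 with GSI, in WT CDPs 8.31 and 8.42 and then 8.81 and 8.97, in IkL/L MDPs 8.57 and 8.77 and then 8.88 and 8.87, and in IkL/L CDPs 8.39 and 8.28 and then 8.74 and 8.80. In both, GSI arrays were above DMSO arrays throughout, and the log2 fold change was 0.33 ± 0.04 (SE; 1.26-fold; adjusted p = 0.0199) for *Stt3a* and 0.37 ± 0.05 (SE; 1.29-fold; adjusted p = 0.0199) for *Stt3b*. The DMSO arrays of *Ddost* read 9.48 and 9.53 in MDPs and 8.96 and 9.19 in CDPs of WT mice, 9.26 and 9.38 in IkL/L MDPs and 9.11 and 8.95 in IkL/L CDPs, and the GSI arrays 9.65 and 9.81, 9.50 and 9.57, 9.70 and 9.69 and 9.57 and 9.52 in the same order. *Ddost*, a subunit common to both forms of the enzyme, had its lowest values in the DMSO-treated CDPs of both genotypes and rose by 0.40 ± 0.05 (SE; 1.32-fold; adjusted p = 0.0199). For *Ostc*, DMSO and GSI arrays stood at 10.37 and 10.62 against 10.84 and 10.99 in WT MDPs, at 10.22 and 10.53 against 10.66 and 10.83 in WT CDPs, then at 10.48 and 10.69 against 10.99 and 11.10 in IkL/L MDPs and at 10.45 and 10.29 against 10.93 and 10.86 in IkL/L CDPs. *Ostc*, a subunit of the STT3A form, rose by 0.44 ± 0.07 (SE; 1.36-fold; adjusted p = 0.0288), the largest change in the complex, with no overlap in any population. *Rpn1* and *Rpn2*, further common subunits, were at 0.39 ± 0.09 (SE; 1.31-fold; adjusted p = 0.115) and 0.37 ± 0.07 (SE; 1.29-fold; adjusted p = 0.063), apart in all 4 populations, and neither passed. *Krtcap2*, *Ost4* and *Dad1* were at 0.30 ± 0.06 (SE), 0.18 ± 0.05 (SE) and 0.16 ± 0.04 (SE).

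*Tusc3* and *Magt1* encode alternative oxidoreductase subunits of the STT3B form, and their values went in opposite directions. *Tusc3* signal was 6.76 and 6.71 with DMSO and 6.18 and 6.68 with GSI in WT MDPs, 7.01 and 7.18 against 6.75 and 6.75 for WT CDPs, 6.92 and 6.53 against 6.63 and 6.67 in IkL/L MDPs and 6.92 and 6.72 against 6.69 and 6.48 in IkL/L CDPs. The *Tusc3* GSI arrays lay below the DMSO arrays in 3 populations and within them in IkL/L MDPs, and the averaged change was -0.24 ± 0.08 (SE; 0.847-fold; adjusted p = 0.302), the lowest of the 48 genes. In WT MDPs *Magt1* measured 9.97 and 10.14 with DMSO and 10.06 and 10.36 with GSI, in WT CDPs 9.78 and 9.82 and then 10.22 and 10.33, in IkL/L MDPs 9.80 and 10.18 and then 10.33 and 10.34, and in IkL/L CDPs 9.73 and 9.93 and then 10.20 and 10.36. *Magt1* was apart and higher in WT CDPs, IkL/L MDPs and IkL/L CDPs, at 0.35 ± 0.07 (SE; 1.28-fold; adjusted p = 0.0751). The log2 GSI effect on *Magt1* exceeded that on *Tusc3* by 0.59 on average and by 0.46, 0.82, 0.42 and 0.68 in WT MDPs, WT CDPs, IkL/L MDPs and IkL/L CDPs. A two-sided exact permutation test of treatment labels within populations (1296 arrangements) gave p = 0.00154, the smallest it can give, and 0.00463 after Benjamini-Hochberg adjustment over the 3 paralog pairs compared. The genes were chosen with earlier results of these data known, so this p-value is not an independent test, and neither gene passed alone. The other pairs, *Stt3a* with *Stt3b* (difference of effects -0.04, exact permutation p = 0.448) and *Sec11a* with *Sec11c* (0.08, exact permutation p = 0.281), were not told apart.

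The 6 ER lectins and disulfide isomerases all had a higher mean with GSI, with a median of 0.34, and 1, *P4hb*, rose. The DMSO arrays of *P4hb* read 10.59 and 10.82 in MDPs and 10.21 and 10.13 in CDPs of WT mice, 10.54 and 10.63 in IkL/L MDPs and 10.26 and 10.06 in IkL/L CDPs, and the GSI arrays 10.82 and 11.04, 10.70 and 10.60, 10.96 and 10.90 and 10.68 and 10.52 in the same order. *P4hb*, protein disulfide isomerase itself, was lowest in the DMSO-treated CDPs of both genotypes and rose by 0.37 ± 0.06 (SE; 1.29-fold; adjusted p = 0.0338). Its treatments did not overlap, although in WT MDPs the higher DMSO and the lower GSI array nearly met. *Pdia6* and *Pdia4*, further isomerases, had larger log2 fold changes but wider spreads. For *Pdia6*, DMSO and GSI arrays stood at 9.28 and 9.98 against 9.76 and 10.55 in WT MDPs, at 9.27 and 9.51 against 10.00 and 10.44 in WT CDPs, then at 9.34 and 10.06 against 10.21 and 10.21 in IkL/L MDPs and at 9.75 and 9.89 against 10.39 and 10.53 in IkL/L CDPs. *Pdia4* signal was 8.66 and 9.22 with DMSO and 9.19 and 9.72 with GSI in WT MDPs, 8.59 and 9.07 against 9.24 and 9.67 for WT CDPs, 8.70 and 9.41 against 9.45 and 9.49 in IkL/L MDPs and 9.01 and 9.18 against 9.57 and 9.72 in IkL/L CDPs. Within groups the replicates of both genes lay far apart in the WT groups and in DMSO-treated IkL/L MDPs, and the GSI and DMSO arrays overlapped in WT MDPs. In each of these groups replicate 2 was the higher for both genes. No label says what a replicate number marks, and with a replicate block in the fit both genes were among those that rose. Averaged, *Pdia6* was at 0.63 ± 0.16 (SE; 1.54-fold; adjusted p = 0.143) and *Pdia4* at 0.53 ± 0.14 (SE; 1.44-fold; adjusted p = 0.169). *Calr* and *Canx*, the lectin chaperones calreticulin and calnexin, were at 0.29 ± 0.09 (SE; 1.22-fold; adjusted p = 0.229) and 0.20 ± 0.05 (SE; 1.15-fold; adjusted p = 0.168), and *Pdia3*, the isomerase that works with them, was at 0.30 ± 0.08 (SE; 1.23-fold; adjusted p = 0.207).

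Promoters were read because ER folding genes are known targets of the unfolded protein response, whose factors bind the ER stress element (CCAAT, 9 bases of any kind, then CCACG). RefSeq windows of 250 bases before to 50 after the start were found for 37 of the 48 genes. The element, sought on both strands, was in 3 of the 37, *Pdia6*, *Calr* and *Canx* (8.11%). It was in 0.119% of 32851 promoters of the same length and in 0.134% of the tested genes with a promoter. A gene was counted if any of its promoters held the letters. The 250 bases before the start of these 3 genes (GRCm38.p6, strand of the gene) are given with the 5 bases at each end of the element in capitals, together with those of *Sec24d*, the gene that rose most, with its match to TGACGTGG in capitals.
Pdia6 (chr12:17266339-17266588, plus strand): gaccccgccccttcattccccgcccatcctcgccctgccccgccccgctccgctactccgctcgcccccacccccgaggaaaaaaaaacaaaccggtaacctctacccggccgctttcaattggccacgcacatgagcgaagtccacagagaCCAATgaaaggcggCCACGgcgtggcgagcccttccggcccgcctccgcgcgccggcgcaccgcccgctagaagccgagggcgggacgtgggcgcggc
Calr (chr8:84846932-84847181, minus strand): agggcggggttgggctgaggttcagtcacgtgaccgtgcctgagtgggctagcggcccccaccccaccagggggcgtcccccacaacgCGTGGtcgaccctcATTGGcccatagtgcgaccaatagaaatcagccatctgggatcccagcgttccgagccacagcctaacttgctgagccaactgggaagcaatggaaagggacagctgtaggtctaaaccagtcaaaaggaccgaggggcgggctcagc
Canx (chr11:50325674-50325923, minus strand): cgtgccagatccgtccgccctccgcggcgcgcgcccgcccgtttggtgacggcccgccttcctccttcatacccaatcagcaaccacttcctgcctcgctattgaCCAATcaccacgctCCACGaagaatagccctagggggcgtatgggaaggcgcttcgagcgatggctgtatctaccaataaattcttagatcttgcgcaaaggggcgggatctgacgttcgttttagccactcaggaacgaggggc
Sec24d (chr3:123267246-123267495, plus strand): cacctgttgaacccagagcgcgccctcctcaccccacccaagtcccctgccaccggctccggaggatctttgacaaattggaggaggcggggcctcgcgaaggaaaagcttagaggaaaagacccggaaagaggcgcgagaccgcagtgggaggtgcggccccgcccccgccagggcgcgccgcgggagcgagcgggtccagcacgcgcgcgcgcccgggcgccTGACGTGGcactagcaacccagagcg
In *Pdia6* the element spans 98 to 80 bases before the start and in *Canx* 145 to 127, and in *Calr* it lies on the opposite strand from 162 to 144 bases before, so that its capitals read as the reverse complement. Of the genes holding it, none passed the GSI test (*Pdia6* 0.63, *Calr* 0.29, *Canx* 0.20). TGACGTGG was found in *Sec24d*, 26 to 19 bases before the start, and in *Copb1* (5.41%, against 0.676% of all promoters and 0.916% of the 15614 tested genes with a promoter). The shorter CCACG, which is also the end of the element, was in 72.97% of the 37, 32.8% of all promoters and 42.9% of these tested genes. ACGTG, which is also part of TGACGTGG, was in 54.05%, 19.6% and 24.4%, and CCAAT, the other end of the element, in 59.46%, 37.4% and 41.7%. The promoters compared were not matched to the 37 for signal or base content. A match is a description of these letters in these windows and not a site of binding.

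*Sec24d*, which picks cargo into COPII vesicles, rose by 0.63 ± 0.09 (SE; 1.55-fold; adjusted p = 0.0231), the largest change of the 48 genes. In WT MDPs *Sec24d* measured 7.12 and 7.37 with DMSO and 8.03 and 7.91 with GSI, in WT CDPs 7.02 and 6.89 and then 7.64 and 7.34, in IkL/L MDPs 6.96 and 7.31 and then 7.58 and 7.82, and in IkL/L CDPs 6.85 and 6.43 and then 7.44 and 7.21. Every GSI array was above both DMSO arrays of its population, and IkL/L CDPs with DMSO held the lowest values. Of the other coat genes, *Sec31a*, an outer coat protein, was at 0.22 ± 0.06 (SE; 1.17-fold; adjusted p = 0.144), apart in all 4 populations. *Sec23b*, the partner of the Sec24 adaptors, and *Sec13*, the partner of Sec31, were at 0.18 ± 0.10 (SE) and 0.14 ± 0.09 (SE), with arrays that overlapped in 2 populations each. The COPI subunits *Copg1*, *Copa* and *Copb1* were at 0.24 ± 0.08 (SE), 0.22 ± 0.05 (SE) and 0.09 ± 0.05 (SE), and none passed.

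Of the cargo receptors, *Lman1* (ERGIC-53, which ferries glycoproteins) had the largest value. The DMSO arrays of *Lman1* read 8.42 and 8.91 in MDPs and 7.97 and 8.47 in CDPs of WT mice, 8.53 and 8.90 in IkL/L MDPs and 8.10 and 8.14 in IkL/L CDPs, and the GSI arrays 8.99 and 9.40, 8.57 and 8.64, 9.04 and 8.997 and 8.65 and 8.78 in the same order. GSI and DMSO arrays were apart in all 4 populations, but replicates differed, and the averaged log2 fold change was 0.45 ± 0.10 (SE; 1.37-fold; adjusted p = 0.112). *Tmed2* and *Tmed10*, p24 proteins that cycle between ER and Golgi, were at 0.17 ± 0.06 (SE) and 0.13 ± 0.04 (SE). Both are among the 5 listed genes with several probe sets of their own, with *Srp9*, *Sec61b* and *Pdia4*. The other *Pdia4* probe set, of lower signal, read 5.36 and 4.40 with DMSO against 5.28 and 4.57 with GSI in WT MDPs. It read 4.73 and 4.36 against 5.23 and 4.77 in WT CDPs. In IkL/L cells it read 4.55 and 4.45 against 4.38 and 4.92 in MDPs and 4.84 and 4.79 against 5.08 and 4.95 in CDPs. The other *Tmed10* probe set had lower means with GSI in CDPs, at 10.00 and 10.08 against 9.98 and 9.85 in WT and 10.04 and 9.79 against 10.00 and 9.78 in IkL/L. In MDPs its means were higher, at 9.86 and 9.93 against 9.93 and 9.945 in WT and 9.79 and 9.80 against 9.84 and 9.89 in IkL/L.

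Of 130 other genes of the same pathways, 4 rose and 0 fell averaged over the populations (0.221% of all genes rose), and the median was 0.13. A higher mean was found in 103 (79.23%, against 57.3% of all genes), the share against which the counts of the single groups stand. The ER chaperones and oxidases gave 3 of the 4, with 16 of 19 higher and a median of 0.34. *Pdia5*, a disulfide isomerase, rose by 0.87 (adjusted p = 0.0491, limma), *Dnajc3*, a co-chaperone of BiP, by 0.46 (adjusted p = 0.0466) and *Manf*, a secreted ER stress protein, by 0.46 (adjusted p = 0.0342). *Cope*, a COPI subunit, rose by 0.51 (adjusted p = 0.0206), the only gene of 14 in the other COPI and Arf genes, whose median was 0.09. No gene was called among the others. Their medians were 0.13 for 23 genes of dolichol-linked oligosaccharide synthesis (15 higher, or 65.22%, *Gmppa* 0.39 and *Dpagt1* 0.35) and 0.15 for 10 genes of glycan trimming (9 higher, *Edem2* 0.35). They were 0.11 for 15 genes of membrane protein insertion (13 higher, *Get4* 0.34) and 0.08 for 5 further translocon and OST genes (5 higher, *Nomo1* 0.38). In vesicle transport they were 0.13 for 13 further COPII genes (11 higher, *Mia3* 0.37), 0.13 for 14 further cargo receptors (10 higher, *Surf4* 0.41) and 0.12 for 17 ER-Golgi tethers and SNAREs (13 higher, *Uso1* 0.35).

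**Figure D4:**
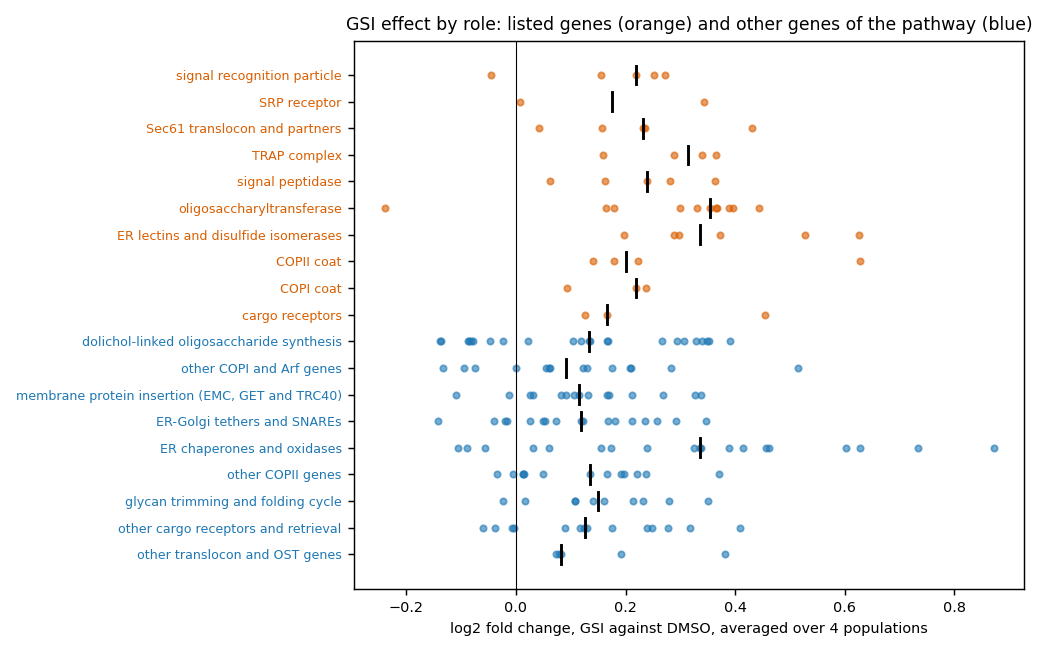
Points give the log2 fold change of GSI against DMSO averaged over the 4 populations (horizontal axis) for the 48 listed genes (orange) and 130 other genes of the pathways (blue), by group (vertical axis), and black bars the group medians. OST (0.35), the ER lectins and isomerases (0.34) and the ER chaperones and oxidases (0.34) have the highest medians.

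Some cell type markers changed with GSI as well, and their part in these results was not tested. None of the 6 progenitor markers had a higher mean averaged over the populations, against 57.3% of all genes, and *Cx3cr1* fell by 1.34 (adjusted p = 0.0199, limma). Of 7 monocyte and macrophage markers, 3 were higher and *Mrc1*, the mannose receptor, rose by 1.32 (adjusted p = 0.0209). The list means were 6.93 to 8.40 in the DMSO arrays and 6.50 to 8.63 with GSI. Plasma cells are rich in this machinery, and 11 genes of plasma cells or of B cells were read as 1 list. Of these, 5 were higher and none was called, with list means of 4.54 to 4.83 with DMSO and 4.40 to 4.73 with GSI. Their single genes differed widely in signal, from 3.43 for *Ms4a1* and 3.49 for *Jchain* to 7.55 for *Cd79b* (means over the 16 arrays). None of the 10 neutrophil markers was higher (median -0.38, 8.31 to 11.59 with DMSO and 8.05 to 11.53 with GSI) and none of the 6 mast cell and basophil markers (median -0.53, 4.75 to 7.08 and 4.50 to 6.59), with no call in either list. The medians of the mature DC, pDC, erythroid and megakaryocyte and cell division markers were 0.07, -0.10, 0.02 and 0.04, with none called.

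Between genotypes, no gene of the 48 passed the test in DMSO MDPs, DMSO CDPs, GSI MDPs or GSI CDPs, where 0.105%, 1.18%, 0.115% and 2.15% of all genes did, and at an unadjusted p under 0.05 the counts were 1, 3, 2 and 1 (4.41%, 9.38%, 6.81% and 10.5% of all genes). A higher mean in IkL/L was found in 28, 19, 32 and 27 genes (49.8%, 43.5%, 44.1% and 45.3% of all genes), so that the share was below that of all genes in DMSO CDPs and above it in the other groups. The median log2 differences of IkL/L minus WT were 0.02, -0.04, 0.04 and 0.02, and without 1 array they ran from -0.07 to 0.10, -0.08 to 0.03, -0.04 to 0.11 and 0.0024 to 0.06. With arrays centred on their median they were below 0 in DMSO MDPs (-0.0044) and GSI CDPs (-0.02). Both IkL/L arrays lay above both WT arrays in 5, 8, 10 and 15 genes (15.2%, 16.3%, 15.7% and 16.7% of all genes) and below them in 2, 10, 5 and 7 (14.9%, 22.7%, 19.7% and 20.6%). *Sec63* was among the 2 lowest in all 4 comparisons, at -0.28, -0.37, -0.22 and -0.29, and *Calr* was among the highest in 3, at 0.22 in DMSO MDPs, 0.53 in DMSO CDPs and 0.27 in GSI CDPs. For *Calr*, DMSO and GSI arrays stood at 10.73 and 11.10 against 11.14 and 11.48 in WT MDPs, at 10.87 and 10.98 against 11.14 and 11.53 in WT CDPs, then at 10.96 and 11.31 against 11.38 and 11.29 in IkL/L MDPs and at 11.39 and 11.51 against 11.57 and 11.63 in IkL/L CDPs. The IkL/L arrays of *Calr* were above the WT arrays in CDPs with either treatment (adjusted p = 0.269 with DMSO, limma), and in MDPs the genotypes overlapped. *Sec63* signal was 7.98 and 7.84 with DMSO and 7.76 and 8.24 with GSI in WT MDPs, 7.80 and 7.84 against 8.18 and 8.06 for WT CDPs, 7.32 and 7.94 against 7.73 and 7.84 in IkL/L MDPs and 7.26 and 7.64 against 7.79 and 7.88 in IkL/L CDPs. The *Sec63* arrays of IkL/L CDPs lay below those of WT CDPs with either treatment, and in MDPs the genotypes overlapped. The remaining extremes were *Rpn1* (0.40) in DMSO MDPs, *Pdia6* (0.43) and *Sec24d* (-0.32) in DMSO CDPs, *Srpr* (0.47) and *Sec24d* (-0.27) in GSI MDPs and *Sec61b* (0.24) in GSI CDPs. *Srpr* passed in GSI MDPs (0.86, adjusted p = 0.0213) when replicate 2 of GSI-treated WT MDPs was left out, which leaves the low replicate 1 as the lone array of its group, assumed to vary like the other groups.

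Between stages, most of the 48 genes had lower means in CDPs than in MDPs. In WT DMSO, IkL/L DMSO, WT GSI and IkL/L GSI, 9, 7, 13 and 9 genes had a higher mean in CDPs (49.6%, 43.6%, 43.5% and 44.5% of all genes). The medians were -0.15, -0.20, -0.10 and -0.12, against -0.0012, -0.02, -0.02 and -0.02 for all genes. Without 1 array they ran from -0.24 to -0.06, -0.29 to -0.13, -0.19 to -0.03 and -0.16 to -0.11. The value nearest 0 came without replicate 2 of DMSO-treated WT MDPs, of DMSO-treated IkL/L MDPs and of GSI-treated WT MDPs in the first 3. Both CDP arrays lay below both MDP arrays in 22, 27, 20 and 30 genes (14.1%, 24.5%, 18.5% and 26.9%). In IkL/L cells with DMSO, *Ssr3* fell by 0.42 (adjusted p = 0.0263, limma), from the values given with TRAP, and it was the only gene of the 48 called in any stage comparison, in which 0.0953%, 1.71%, 0.176% and 2.42% of all genes were. The call was lost when any of the 4 arrays compared was left out, and with the compared arrays alone, with genes above the median alone and with a trended and robust spread. At an unadjusted p under 0.05, 10, 16, 9 and 7 genes were lower (2.32%, 5.29%, 4.22% and 6.06% of all genes) and none higher. The lowest values were those of *P4hb* (-0.53), *Lman1* (-0.44) and *Ddost* (-0.43) in WT DMSO and *Lman1* (-0.59), *Sec24d* (-0.50) and *Srp9* (-0.45) in IkL/L DMSO. With GSI they were *Lman1* (-0.59), *Sec24d* (-0.48) and *Ssr2* (-0.43) in WT cells and *Sec24d* (-0.37), *Srp19* (-0.35) and *P4hb* (-0.33) in IkL/L cells. *Lman1* and *Sec24d* were thus among the 5 lowest in 4 and 3 of the 4 comparisons. The highest were *Tusc3* (0.36), *Calr* (0.32), *Srpr* (0.39) and *Pdia3* (0.34) in the same order. *Srpr* passed in WT GSI (0.79, adjusted p = 0.0276) without replicate 2 of GSI-treated WT MDPs. Of the other pathway genes, *Sec22b*, a SNARE of ER-Golgi transport, fell by 0.46 (adjusted p = 0.0427) in IkL/L GSI.

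Cell division genes moved with both contrasts in IkL/L CDPs. Of 9, 4 fell against IkL/L MDPs with DMSO (median -1.09) and 5 with GSI (median -1.28), and 4 and 5 fell against WT CDPs (medians -0.93 and -1.47). In these comparisons 1.71%, 2.42%, 1.18% and 2.15% of all genes were called in either direction. In WT cells none was called between stages (medians -0.04 and 0.39). Other marker lists differed as well. With DMSO, mature DC list means were 4.71 to 4.72 in WT MDPs, 5.52 to 5.71 in WT CDPs, 5.10 to 5.52 in IkL/L MDPs and 8.38 to 8.96 in IkL/L CDPs. Neutrophil list means were 10.24 to 10.25, 8.31 to 9.84, 11.43 to 11.59 and 9.61 to 10.09 in the same order. The part of any of these lists in the values of the 48 genes was not tested.

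**Figure D5:**
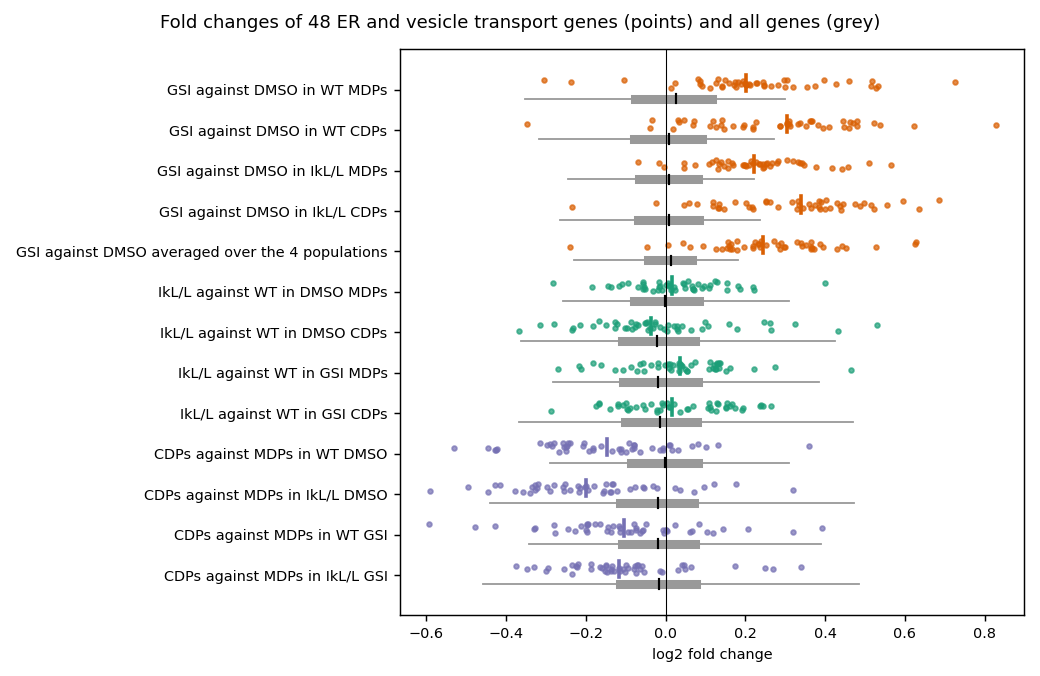
Points give the log2 fold changes (horizontal axis) of the 48 genes in each comparison (vertical axis), coloured bars their median, and grey bars the 25th to 75th and grey lines the 5th to 95th percentile of all genes with their median in black. The GSI medians (0.20 to 0.34) lie to the right of all genes, the genotype medians (-0.04 to 0.04) within them and the stage medians (-0.20 to -0.10) to their left.

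Differences between these effects were tested directly, and none of the 48 genes passed. The GSI effect in IkL/L minus that in WT had a median of 0.03 in CDPs, from -0.26 (*Calr*) to 0.37 (*Ssr4*), and of 0.02 in MDPs, from -0.26 (*Rpn1*) to 0.31 (*Srpr*). There were 0 genes at an unadjusted p under 0.05 in either (1.43% and 1.63% of all genes) and 0.0% of all genes called. The typical 95% interval of such a difference ran from -0.35 to 0.43 in CDPs and from -0.33 to 0.38 in MDPs (medians of the bounds) and spans values of the size of the averaged GSI effects. The genotype effect in CDPs minus that in MDPs with DMSO had a median of -0.06, from -0.45 (*Ssr4*) to 0.36 (*Pdia6*), with 1 gene, *Ssr4*, at an unadjusted p under 0.05 (3.47% of all genes), 0.105% of all genes called and a typical interval from -0.43 to 0.32. The GSI, genotype and stage comparisons share arrays, and their values for a gene are not independent of each other.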

How the data were processed

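RNA of sorted CD45.2+ cells was amplified and hybridized to 16 Affymetrix Mouse Gene ST arrays, 2 in each of 8 groups taken from the sample labels. The log2 values (2.55 to 13.46) were made by the authors with RMA in Affymetrix Expression Console 1.4.1 (background correction, normalization between arrays and summary of probes). Genes were named through the platform annotation, of unknown version. Of 28188 probe sets, 21789 carried 1 gene symbol, 1621 several and 4778 none. The 19938 symbols of the first kind were tested, with the brightest probe set where a symbol had several. The arrays deposit no signal over background, and their number limits the precision.

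A model with a mean for each of the 8 groups was fitted by limma 3.58.1 in R 4.3.3 (lmFit and eBayes, 8 residual and 2.35 prior degrees of freedom), for 16 comparisons, two-sided, with Benjamini-Hochberg adjustment over all genes and a threshold of 0.05. The script was tested on simulated data. Figures and counts used Python 3.11.15 with pandas 2.3.3 and matplotlib 3.10.9. The genes and lists were chosen with earlier results of these data known. Named were genes past the threshold, the 5 highest and 5 lowest of a comparison (the text prints fewer for genotype and stage), the largest GSI change of each role, 3 paralog pairs and up to 4 genes of each pathway or marker list. Of 137 other pathway genes, 130 were measured. Promoters came from RefSeq (GRCm38.p6), and 11 of the 48 genes had no entry there. Alternatives were a replicate block (a fixed term for the replicate number, shared by all groups), the compared arrays alone and genes above the median alone. Others were eBayes with trend and robust (statmod 1.5.0), arrays centred on their median, the mean of a gene's probe sets, and leaving out each array.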

Additional observations from a re-analysis of the deposited data

How the results depend on the processing

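The higher means with GSI and the lower means in CDPs kept their median direction with median centring and with probe sets averaged. They also kept it without any of the 16 arrays, with medians of 0.14 to 0.35 for GSI and -0.29 to -0.03 for CDPs. The other alternatives cannot change these medians, since they alter only the estimate of the spread or the genes adjusted over. The number of genes called did not hold. For GSI averaged over the populations, 11 genes rose as fitted, 19 with a replicate block and 1 with arrays centred on their median. The count was 10 with the trend and robust fit, 10 among genes above the median and 12 with probe sets averaged. The compared arrays are here all 16, so that setting repeats the main fit. Without 1 array the count varied, as given with the averaged result. For CDPs against MDPs in IkL/L DMSO, the 1 call became 3 with the block, 0 with the compared arrays alone, 0 among genes above the median, 0 with the trend and robust fit, and 0 to 1 without 1 array. Without 1 array, IkL/L against WT in GSI MDPs and CDPs against MDPs in WT GSI had 0 to 1 calls, and 5 medians turned sign, those of IkL/L against WT in DMSO MDPs (-0.07 to 0.10), DMSO CDPs (-0.08 to 0.03) and GSI MDPs (-0.04 to 0.11), of the GSI effect in IkL/L minus WT in MDPs (-0.07 to 0.09) and of the genotype effect in CDPs minus MDPs (-0.14 to 0.057). With median centring, the genotype medians in DMSO MDPs (-0.0044) and GSI CDPs (-0.02) turned sign. Whether replicate numbers pair the samples was checked by correlating deviations from the group means over 28 pairs of groups. The correlation was -0.25 to 0.66 and over 0.1 in 17, and for GSI with DMSO of WT MDPs, WT CDPs, IkL/L MDPs and IkL/L CDPs it was 0.48, 0.59, -0.02 and 0.66. As 1 of these 4 was not over 0.1 and no label says what a number marks, the numbers were not taken as pairs. In WT MDPs, WT CDPs and IkL/L CDPs the replicate deviations were shared between treatments. The main fit and its p-values do not take this into account, and its source was not tested. With the block, *Lman1* (adjusted p = 0.0243), *Magt1* (0.0123), *Pdia4* (0.0175), *Pdia6* (0.0231) and *Sec61a1* (0.0261) were among the genes that rose for GSI averaged and *Srp9* (0.0429) among those that fell in CDPs of IkL/L DMSO. The cause of these shifts was not tested. With median centring, *Sec23b* (-0.024) and *Sec62* (-0.012) for GSI in WT MDPs and *Srpr* (-0.012) for GSI averaged turned sign. Without 1 array, 50 of 242 gene results turned sign, none of them called, and their lowest and highest values follow. For GSI in WT MDPs these were *Magt1* -0.0006 to 0.30, *Sec11a* -0.034 to 0.38, *Sec23b* -0.39 to 0.42, *Sec62* -0.076 to 0.12, *Srp14* -0.27 to 0.059, *Srp68* -0.085 to 0.31 and *Srpr* -0.63 to 0.16. For GSI in WT CDPs these were *Sec13* -0.19 to 0.22, *Sec62* -0.025 to 0.089 and *Ssr4* -0.29 to 0.22. For GSI in IkL/L MDPs these were *Copg1* -0.053 to 0.32, *Sec62* -0.062 to 0.055, *Srp14* -0.12 to 0.088, *Srp68* -0.069 to 0.41, *Srp72* -0.13 to 0.22 and *Tusc3* -0.26 to 0.12. For GSI in IkL/L CDPs these were *Copb1* -0.022 to 0.14, *Spcs1* -0.0008 to 0.16, *Srp14* -0.063 to 0.013 and *Srpr* -0.058 to 0.15. For GSI averaged these were *Srpr* -0.092 to 0.11. For IkL/L against WT in DMSO MDPs these were *P4hb* -0.23 to 0.0022, *Sec63* -0.59 to 0.029 and *Srp68* -0.38 to 0.094. For IkL/L against WT in DMSO CDPs these were *Ssr4* -0.50 to 0.024. For IkL/L against WT in GSI MDPs these were *Lman1* -0.39 to 0.022, *Sec23b* -0.24 to 0.57, *Sec63* -0.46 to 0.023 and *Tusc3* -0.025 to 0.47. For CDPs against MDPs in WT DMSO these were *Rpn1* -0.15 to 0.28, *Srp14* -0.082 to 0.24 and *Ssr4* -0.13 to 0.39. For CDPs against MDPs in IkL/L DMSO these were *Pdia3* -0.027 to 0.38, *Pdia6* -0.24 to 0.48, *Srp14* -0.031 to 0.18 and *Tusc3* -0.099 to 0.29. For CDPs against MDPs in WT GSI these were *Pdia3* -0.033 to 0.45, *Sec63* -0.12 to 0.36 and *Srpr* -0.0055 to 0.79. For the GSI effect in IkL/L minus WT CDPs these were *Copa* -0.28 to 0.0038, *Lman1* -0.040 to 0.46, *Pdia6* -0.42 to 0.031 and *Srp68* -0.28 to 0.045. For the GSI effect in IkL/L minus WT MDPs these were *Copg1* -0.35 to 0.023, *Lman1* -0.47 to 0.014, *Sec23b* -0.29 to 0.53, *Srpr* -0.088 to 0.71 and *Tusc3* -0.011 to 0.48. For the genotype effect in CDPs minus MDPs these were *Pdia6* -0.0001 to 0.72 and *Srp68* -0.066 to 0.41.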
